A study of Mus musculus with 4 samples.

Results

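The 7 chemokine receptor genes Ccr9, Cxcr6, Xcr1, Ccr1, Ccr3, Ccr2 and Ccrl2 of mouse chromosome 9 were followed through the open chromatin of sorted T cells. They were chosen by name and position, and make up 7 of the 21887 protein-coding genes counted. Fragments were counted when an end lay in the gene span or within 5 kb of it, and in 500-bp tiles across the surrounding sequence. Values are fragments per 1000000 fragments (FPM) of a cell type in a library.

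T cells had been sorted from orthotopic AKP tumors, grown from transplanted mouse organoids, and from the cecum beside them, 4 weeks after transplantation. The single-cell multiome assay read RNA and ATAC (transposase-accessible DNA) from the same nuclei, and 1 cecum and 1 tumor ATAC library were used here. The organoids were injected under the serosa of the cecum, and the genotype, sex, age and number of the host mice behind each library are not given in the sources used here. The authors' labels, derived from the RNA, place 15621 cells in 17 cell types, of which 16 had at least 50 cells in both libraries.

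Each tissue is represented by 1 library, so differences have no replicate check, and neither tests nor p-values are given. Tissue and library cannot be told apart. Intervals are exact at 95% and cover the error of counting alone, not variation between animals or cells. A pair of levels is called separated when the interval of their log2 ratio lies apart from 0.

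Chemokine receptors are G protein-coupled receptors that steer leukocytes along gradients of small secreted proteins. CCR9 binds CCL25 of the small intestine and thymus and marks gut-homing T cells, and CXCR6 binds CXCL16 and is found on tissue-resident and effector T cells. CCR1, CCR2 and CCR3 bind inflammatory CC chemokines, with CCR2 known for monocytes and effector T cells and CCR3 for eosinophils. XCR1 marks cross-presenting dendritic cells and binds XCL1, and CCRL2 is an atypical receptor that presents chemerin and does not signal in the usual way. Open chromatin around such a gene is a measure of the locus and not of its RNA or protein.

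The cecum library held 66466111 fragments and the tumor library 96747563, and labelled cells carried 66.2% and 64.3% of those kept. The median per labelled cell was 4374 fragments for the cecum library and 5846 for the tumor library. Labelled cells of the libraries shared 84 barcodes. Cell numbers per type ran from 77 to 1398 in the cecum and from 58 to 1841 in the tumor among the 16 types. The summed level of 5 T cell marker genes lay between 666 and 947 FPM over the types in the cecum and between 664 and 906 FPM in the tumor. The 6 macrophage and monocyte marker genes summed to between 132 and 211 FPM over the types in the cecum and between 144 and 225 FPM in the tumor, and the 6 B cell marker genes to between 122 and 373 and between 138 and 422 FPM. Within these lists Csf1r (3.62 and 4.56 FPM), Lyz2 (0.887 and 1.11 FPM) and Ms4a1 (2.16 and 1.77 FPM) were low over labelled cells, whereas Cd68 (114 and 103 FPM), Spi1 (42.0 and 47.6 FPM), Cd79a (90.2 and 86.5 FPM), Blk (40.5 and 45.2 FPM) and Pax5 (30.4 and 34.5 FPM) were higher. The B cell sums were highest in Rorgt gdT cells in both libraries, where Blk alone held 246 and 274 FPM. Pax5 was highest in Tfh-like cells, with 90.5 and 76.7 FPM. The part of other cells in the results was not tested.

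Of the members, 6 formed a run on chromosome 9 of GRCm38 that spanned 341.93 kb from the start of Ccr9 to the end of Ccr2. In order these are Ccr9 (chr9:123767211-123783457, plus strand), Cxcr6 (chr9:123806477-123811754, plus), Xcr1 (chr9:123852315-123862029, minus), Ccr1 (chr9:123962126-123968692, minus), Ccr3 (chr9:124017825-124031692, plus) and Ccr2 (chr9:124101918-124109140, plus). Ccrl2 (chr9:111054834-111057518, minus) lay 12.7 Mb from that run and was counted as a region of its own. The windows of the members did not overlap one another. Those of Ccr9, Cxcr6 and Xcr1 overlapped the window of Fyco1, an autophagy adaptor gene on the minus strand, by 3.96, 15.3 and 9.59 kb. Cxcr6 lies within the span of Fyco1. The Ccr1 window shared 2.26 kb with that of its paralog Ccr1l1.

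The promoters of Cxcr6, Ccr1, Ccr9 and Ccr2, the members described in most detail below, are shown first, since the levels refer back to them. Each runs from 250 bases before to 50 bases after the listed start, 5′ to 3′ on the strand of the gene, from RefSeq on GRCm38.p6. All 7 members matched an entry. Capitals mark letters that matched one of 7 searched motifs on either strand.
Cxcr6: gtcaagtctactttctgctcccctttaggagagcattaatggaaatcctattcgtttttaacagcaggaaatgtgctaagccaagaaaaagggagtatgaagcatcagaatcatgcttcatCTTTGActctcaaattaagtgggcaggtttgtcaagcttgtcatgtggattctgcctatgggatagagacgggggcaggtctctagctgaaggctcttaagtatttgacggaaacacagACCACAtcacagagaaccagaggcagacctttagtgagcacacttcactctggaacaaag
Ccr1: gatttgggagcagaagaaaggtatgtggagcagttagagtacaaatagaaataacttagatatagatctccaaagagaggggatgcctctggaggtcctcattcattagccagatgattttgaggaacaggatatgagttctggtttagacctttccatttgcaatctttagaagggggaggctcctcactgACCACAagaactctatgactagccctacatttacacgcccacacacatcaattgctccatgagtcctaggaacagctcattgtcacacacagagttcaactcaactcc
Ccr9: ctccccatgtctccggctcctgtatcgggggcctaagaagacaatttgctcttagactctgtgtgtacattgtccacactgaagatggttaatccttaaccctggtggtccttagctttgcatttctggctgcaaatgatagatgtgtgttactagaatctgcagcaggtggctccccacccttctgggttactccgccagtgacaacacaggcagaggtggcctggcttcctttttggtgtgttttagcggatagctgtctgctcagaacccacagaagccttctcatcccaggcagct
Ccr2: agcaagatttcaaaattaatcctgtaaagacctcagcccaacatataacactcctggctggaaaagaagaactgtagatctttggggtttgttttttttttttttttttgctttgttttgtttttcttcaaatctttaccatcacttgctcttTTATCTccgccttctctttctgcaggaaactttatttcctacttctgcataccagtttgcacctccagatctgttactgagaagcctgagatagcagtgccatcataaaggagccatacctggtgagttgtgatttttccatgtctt

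These sequences lie at chr9:123806227-123806526 (Cxcr6), chr9:123968643-123968942 (Ccr1), chr9:123766961-123767260 (Ccr9) and chr9:124101933-124102232 (Ccr2). Of the 32851 promoters of this length in the table, 7.81% held the AP-1 letters TGANTCA on either strand. The RUNX letters TGTGGT were in 16.8% of promoters, and the T-box letters GGTGTGA in 3.98%. The ROR letters AGGTCA were in 16.3%, and the longer NR4A form AAGGTCA, which contains them, in 4.72%. The GATA letters AGATAA were found in 11.2% and the TCF letters CTTTGA in 16.003% of the promoters. Cxcr6 held a RUNX match 10 bases and a TCF match 129 bases before the start, and Ccr1 a RUNX match 58 bases before it. Ccr2 held a GATA match 97 bases before the start, and in Ccr9 and Ccrl2 none of the motifs was found. Ccr3 held AP-1 and GATA matches and Xcr1 a TCF match. A match describes the letters in the window and no more.

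The promoters differed widely in openness over all labelled cells. The 300 bases of Cxcr6 held 17.3 FPM (16.1 to 18.6) in the cecum library and 17.2 (16.1 to 18.2) in the tumor library. Those of Ccr1 held 3.46 and 2.61 FPM and those of Ccrl2 3.21 and 4.19 FPM. The Ccr9 promoter was less open, at 1.02 and 1.18 FPM, and that of Ccr2 held 0.705 and 0.435 FPM from 31 and 27 fragments. Ccr3 and Xcr1 were nearly closed at their listed starts, with 5 and 3 fragments and with 4 and 10 fragments. The listed start of Ccr3, chr9:124021971, lies inside its gene span, which begins at chr9:124017825. That of Ccr2, chr9:124102183, lies inside a span that begins at chr9:124101918. The beginning of the Ccr3 span was not counted as a promoter. Thus only the Cxcr6 promoter among the 7 passed 5 FPM in either library.

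Over the whole window and per kb of window, Cxcr6 was the most open member, at 4.59 FPM per kb in the cecum and 4.78 in the tumor. The median protein-coding gene held 0.666 and 0.694 FPM per kb. Xcr1 followed with 3.54 and 3.49 and Ccrl2 with 1.93 and 2.20 FPM per kb. Ccr2 held 1.35 and 1.26, Ccr9 0.9997 and 1.10 and Ccr1 0.876 and 0.842 FPM per kb. Ccr3 was the only member below the median gene, at 0.297 and 0.312 FPM per kb. The order of the 7 was the same in both libraries.

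**Figure D1:**
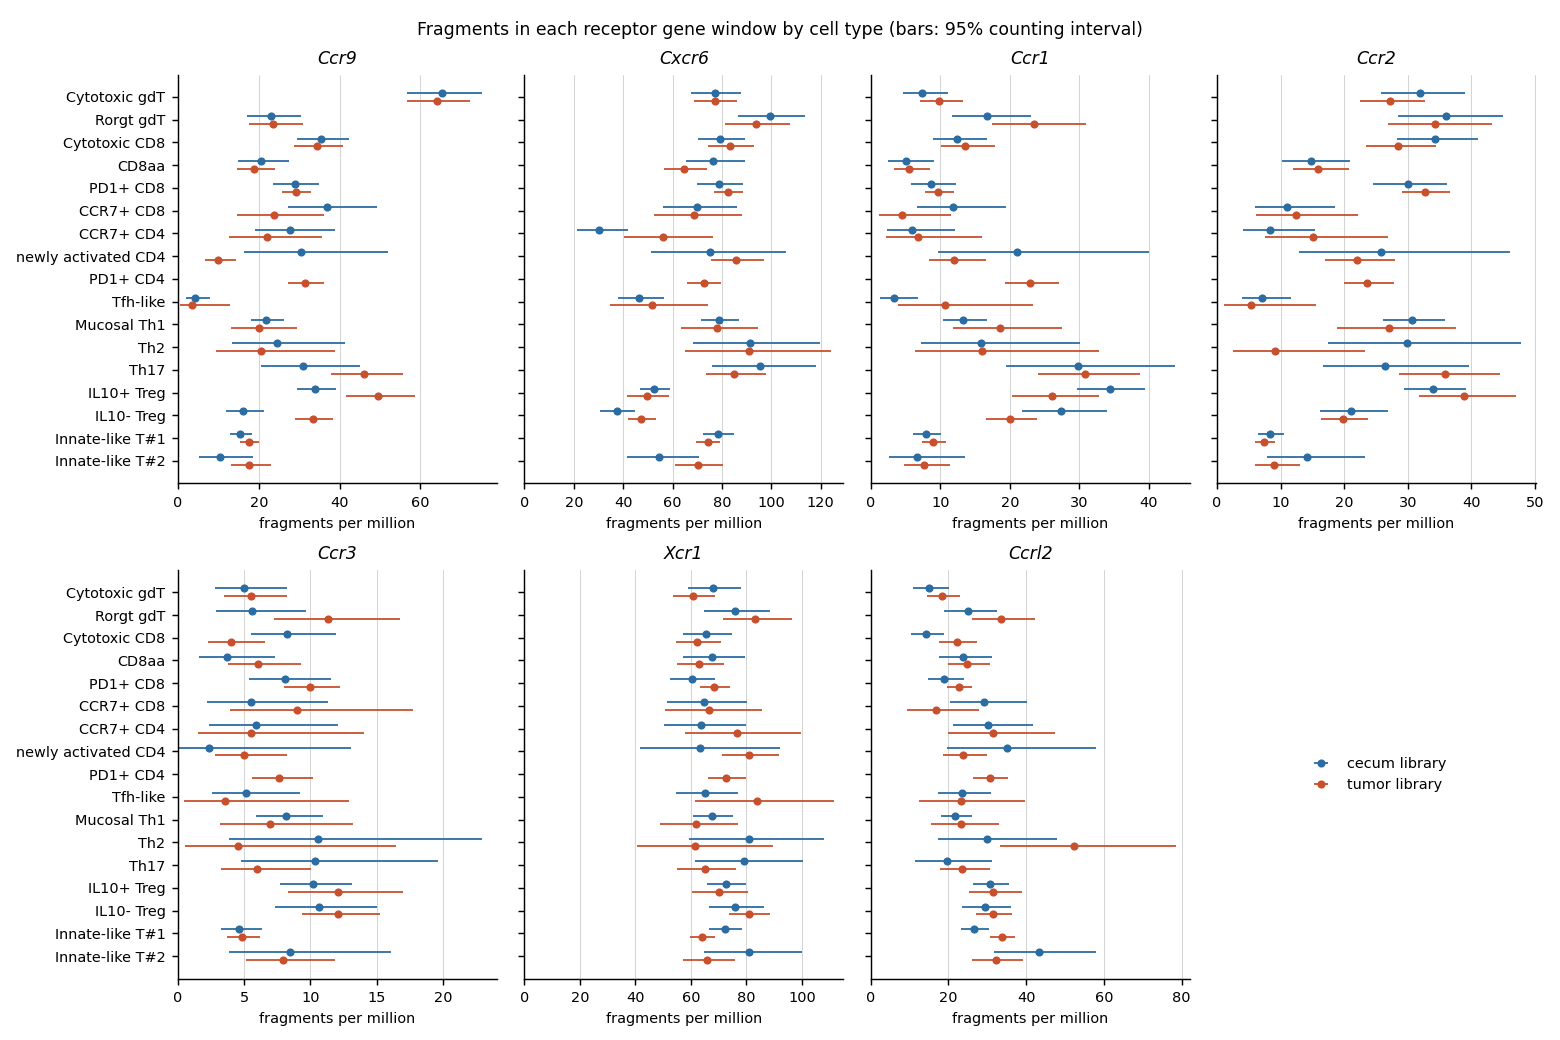
FPM (x axis) in the window of each of the 7 genes for each labelled cell type (y axis), with points for the cecum (blue) and tumor (red) libraries and bars for the exact 95% counting interval. Ccr9 stood highest in Cytotoxic gdT cells in both libraries, and Xcr1 lay within a narrow band over the types. PD1+ CD4 cells are shown for the tumor only, since the cecum held 14 of them.

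Ccr9, the receptor for CCL25, had the widest range of levels over the types, 15.5-fold in the cecum and 18.0-fold in the tumor. Cytotoxic gdT cells (the γδ T cells with a cytotoxic label) held 65.5 FPM (56.7 to 75.3) in the cecum library and 64.2 (56.7 to 72.3) in the tumor library. The median of the 16 types was 26.1 and 22.7 FPM, and the lowest type in both libraries was Tfh-like, with 4.22 and 3.57 FPM from 9 and 2 fragments. The leading type was separated from each of the 15 others in both libraries by the interval of the ratio. It was log2 0.82 (0.36 to 1.31) above the next type, CCR7+ CD8, in the cecum and log2 0.37 (0.07 to 0.68) above the next, IL10+ Treg, in the tumor. Behind it came CCR7+ CD8, Cytotoxic CD8 and IL10+ Treg cells at 37.0, 35.4 and 34.0 FPM in the cecum, and no neighbours among them were separated. In the tumor IL10+ Treg and Th17 cells followed at 49.5 and 46.2 FPM. The other γδ label, Rorgt gdT, held only 23.1 and 23.5 FPM.

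Ccr9 was 1 of 7 members whose leading type was the same in both libraries and 2-fold above the median type on the FPM + 1 scale. Over all genes tested 6.62% met that rule. The smaller condition of an identical leading type was met by 2 of 7 members, Ccr9 and Cxcr6, against 26% of all genes. Cxcr6 no longer met it under 5 of 11 alternative settings. Those of the 11 that changed only the pseudocount or the gene minimum could not move a leading type. Across the 16 types the log2 levels of Ccr9 in the libraries had a Pearson r of 0.78, as a description over types that share a library and its depth.

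The most open tile of Ccr9 lay inside the gene and not at the start. The tile chr9:123768501-123769000, centred 1.54 kb past the start within the gene, held 10.05 and 10.5 FPM over all cells. Cytotoxic gdT cells held 19.6 and 22.2 FPM there, but Th17 cells held 19.5 and 20.9 and IL10+ Treg cells 18.0 and 22.0 FPM. Thus at the most open tile the leading label had levels close to those of Th17 and IL10+ Treg cells. Another 4 open tiles of the window, by the threshold given below, were led by Cytotoxic gdT cells in at least 1 library. At chr9:123763501-123764000 and chr9:123764001-123764500, centred 3.46 and 2.96 kb upstream of the start, they held 6.65 and 7.31 FPM in the cecum and 9.54 FPM at each in the tumor. The first of these was led in the cecum by Cytotoxic CD8 cells, with 7.08 FPM, and held 3.18 and 3.94 FPM over all cells. In 23 of the 53 tiles of the window Cytotoxic gdT exceeded Cytotoxic CD8 cells in both libraries, and in 3 the order was the opposite in both.

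Outside the Ccr9 window, the tile chr9:123749501-123750000 lay 17.5 kb upstream of its start and was also led by Cytotoxic gdT cells. They held 12.6 FPM in the cecum library and 13.8 in the tumor library, and Cytotoxic CD8 cells 9.74 and 12.3 FPM. PD1+ CD8 cells held 4.44 and 8.20 FPM, whereas IL10+ Treg cells held 0.525 and 1.10 FPM and Tfh-like cells no fragment in either library. The tile inside the gene was likewise open in both cytotoxic labels, with 10.3 and 11.98 FPM in Cytotoxic CD8 cells, but it held 18.04 and 22.0 FPM in IL10+ Treg cells.

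**Figure D2:**
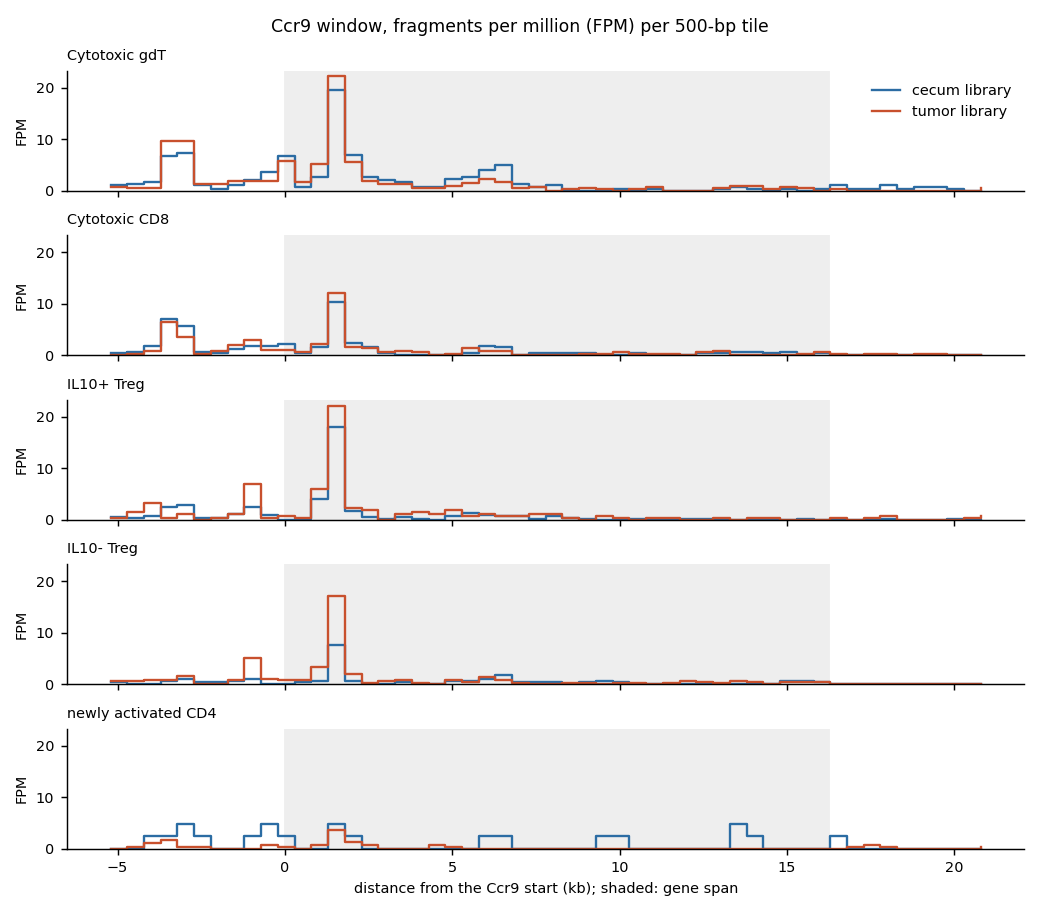
FPM per 500-bp tile (y axis) across the Ccr9 window against the distance from its start in kb (x axis, gene span shaded), for 5 cell types in the cecum (blue) and tumor (red) libraries. The highest tile lies inside the gene, and in IL10- Treg cells it reached 7.66 FPM in the cecum library and 17.1 in the tumor library.

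Cxcr6, the receptor for CXCL16, was open in every type. Rorgt gdT cells led in both libraries with 99.4 FPM (86.6 to 114) in the cecum library and 93.6 (81.1 to 108) in the tumor library. They were not separated from the next type, Th17 cells with 95.3 FPM in the cecum and Th2 cells with 91.1 FPM in the tumor. The lowest levels were in CCR7+ CD4 cells in the cecum, with 30.2 FPM, and in IL10- Treg cells in the tumor, with 47.2 FPM. IL10+ Treg cells held 52.5 and 49.5 FPM and Tfh-like cells 46.4 and 51.7 FPM. Tumor CCR7+ CD4 cells held 56.2 FPM, so both Treg labels, Tfh-like and CCR7+ CD4 cells were the 4 lowest types in each library. The log2 levels of Cxcr6 in the libraries had a Pearson r of 0.86 over 16 types.

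The highest type stood 3.29-fold above the lowest in the cecum and 1.98-fold in the tumor. The 500-bp tiles of the Cxcr6 window with the highest levels were chr9:123814001-123814500 and chr9:123814501-123815000, centred 7.77 and 8.27 kb past the gene start within the Fyco1 span. They held 18.3 and 17.6 FPM in the cecum library, with 17.6 and 16.3 in the tumor library. A tile border cuts the Cxcr6 start, and the 300 bases of its promoter alone held 17.3 and 17.2 FPM. In CCR7+ CD4 cells the first held 5.03 FPM in the cecum, the lowest of the types. Since Cxcr6 lies inside Fyco1, fragments of this window cannot be assigned to either gene.

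Past Cxcr6, and still within Fyco1, several open tiles had leaders that were the same in both libraries. The adjoining tiles chr9:123835501-123836000 and chr9:123836001-123836500 were led by Th17 cells, at 28.7 FPM each in the cecum and at 24.4 and 27.8 FPM in the tumor. The tile chr9:123845001-123845500 was led by Rorgt gdT cells with 25.9 and 19.8 FPM. At chr9:123831001-123831500, 24.8 kb past the Cxcr6 start, Rorgt gdT cells held 11.6 FPM from 25 fragments and 9.88 FPM from 21, against a median type of 0 and 0.349 FPM. PD1+ CD4 cells, compared in the tumor only, held 10.3 FPM there from 63 fragments. No other type passed 5 FPM in either library at this tile.

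Ccr1, a receptor for CCL3, CCL5 and related chemokines, was highest in IL10+ Treg and Th17 cells. IL10+ Treg cells held 34.3 FPM (29.7 to 39.5) in the cecum library and 26.03 (20.3 to 32.8) in the tumor library. Th17 cells held 29.9 FPM (19.5 to 43.7) and 30.8 FPM (24.1 to 38.8), and IL10- Treg cells 27.3 and 19.98 FPM. Rorgt gdT cells held 16.65 FPM in the cecum library and ranked above IL10- Treg cells in the tumor library with 23.5 FPM, where they were not separated from the leader. PD1+ CD4 cells, with too few cells in the cecum to be among the 16 types, held 22.95 FPM in the tumor. IL10+ Treg and Th17 cells exchanged the first place between the libraries and were not separated in either. The leader was separated from 12 of the 15 other types in each library. The median type held 12.1 and 11.4 FPM. The lowest were Tfh-like cells in the cecum with 3.28 FPM and CCR7+ CD8 cells in the tumor with 4.50 FPM, from 7 and 4 fragments.

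At the Ccr1 start the tile chr9:123968501-123969000 was led by IL10+ Treg cells in both libraries, with 12.6 and 7.70 FPM against 1.53 and 2.09 FPM in the median type. In the 300-base promoter printed above they held 11.6 FPM from 66 fragments and 6.60 FPM from 18. By contrast, the tile chr9:123960001-123960500, 8.44 kb past the start, was led by Th17 cells with 21.8 and 16.7 FPM against a median of 4.88 and 5.41 FPM. The tile at the start and the tile beyond the end of the gene therefore had different leading types, each the same in both libraries. These leads were not checked against the next type by interval. In the tumor library IL10+ Treg cells held 21 fragments at the start tile. Rorgt gdT cells held 5.65 FPM there from 12 fragments, and PD1+ CD4 cells 7.49 FPM from 46.

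Ccr2, the receptor for CCL2 and CCL7, was open in effector, γδ and IL10+ Treg cells. Rorgt gdT cells led in the cecum with 36.1 FPM (28.5 to 45.02) and held 34.3 FPM in the tumor. IL10+ Treg cells led in the tumor with 38.9 FPM (31.8 to 47.0) and held 34.0 FPM in the cecum. Cytotoxic CD8 cells held 34.2 and 28.5 FPM, Cytotoxic gdT cells 31.9 and 27.2 and PD1+ CD8 cells 29.98 and 32.7 FPM. At the other end stood Tfh-like cells with 7.03 and 5.35 FPM and Innate-like T#1 with 8.31 and 7.44 FPM. CCR7+ CD4 cells held 8.38 and 15.1 FPM, CCR7+ CD8 cells 11.02 and 12.4 and Innate-like T#2 14.1 and 8.95 FPM. Th2 cells held 29.9 FPM in the cecum library but 9.11 in the tumor library, from 17 and 4 fragments. The 16 types had a Pearson r of 0.80 between the libraries, and no neighbours in the order were separated.

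Since the Ccr2 promoter held few fragments, its level came from other tiles. The most open was chr9:124099001-124099500, centred 2.93 kb upstream of the listed start, with 5.28 and 5.68 FPM over all cells. It was led by Cytotoxic gdT cells with 14.6 FPM in the cecum and by Th17 cells with 13.7 FPM in the tumor. The tile chr9:124103001-124103500, 1.07 kb past the start, held 3.73 and 3.25 FPM. Beyond the window, chr9:124114501-124115000, 12.6 kb past the start, was led by PD1+ CD8 cells with 22.8 and 20.003 FPM. CD8aa, Cytotoxic gdT and Cytotoxic CD8 cells held between 15.6 and 20.4 FPM there in both libraries, against 1.67 and 1.21 FPM in IL10- Treg cells.

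Ccr3, known from eosinophils, had the least open window. Its highest types were IL10- Treg cells with 10.7 FPM in the cecum and IL10+ Treg cells with 12.1 FPM in the tumor, where IL10- Treg cells also held 12.1 FPM. Newly activated CD4 cells were lowest in the cecum with 2.34 FPM from 1 fragment, and Tfh-like cells in the tumor with 3.57 FPM from 2. Both Treg labels were thus among the highest in each library, but the leader was separated from only 4 types in the cecum and 6 in the tumor. No tile of the Ccr3 window passed the threshold for open tiles given below.

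Xcr1, a marker of dendritic cells, showed no cell type pattern that repeated. Its levels lay between 60.2 and 81.1 FPM in the cecum and between 60.8 and 83.8 FPM in the tumor, and its leaders were Innate-like T#2 and Tfh-like cells. The spread over types was 1.09 and 2.83 times that of counting error alone, beside 20.9 and 26.5 times for Ccr9. Its most open tiles, chr9:123852001-123852500 and chr9:123851501-123852000, held 29.9 and 27.8 FPM in the cecum, with 25.8 and 25.02 FPM in the tumor, and lie at the start of Fyco1. The part of the window that runs from inside the Fyco1 span to 1 kb upstream of the Fyco1 start also takes in the end of Xcr1. Fragments with an end in that part made up 94.3% and 92.5% of the window. Fragments with an end beyond that point held 4.41 and 5.52 FPM, a few of which have an end on each side and count in both shares. The 300-base promoter of Xcr1 held 0.0909 and 0.161 FPM. The apparent openness of the Xcr1 window in T cells thus lay mostly in that part, with its most open tiles at the start of the neighbour.

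Ccrl2, the atypical receptor for chemerin, had moderate levels with different leaders. Innate-like T#2 cells held 43.4 FPM (31.7 to 57.8) in the cecum library and 32.2 in the tumor library. Th2 cells held 52.4 FPM (33.2 to 78.6) in the tumor from 23 fragments and 29.9 FPM in the cecum from 17. Cytotoxic CD8 and Cytotoxic gdT cells were lowest in the cecum with 14.2 and 14.96 FPM, and held 22.1 and 18.4 FPM in the tumor. The tiles beside its start, chr9:111057001-111057500 and chr9:111057501-111058000, held 6.18 and 5.02 FPM in the cecum, with 5.96 and 5.91 FPM in the tumor. At chr9:111086001-111086500, 28.7 kb upstream, IL10+ Treg cells held 15.1 FPM from 86 fragments and 18.7 FPM from 51, against a median type of 1.26 and 1.10 FPM. Rorgt gdT cells held 9.25 and 8.47 FPM there, Th17 cells 10.3 and 3.42 and IL10- Treg cells 3.999 and 9.47 FPM. Innate-like T#2, which led the Ccrl2 window in the cecum, held 0 and 1 fragments in that tile.

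PD1+ CD4 cells were compared in the tumor only, where 616 cells held 31.4 FPM at Ccr9, 72.6 at Cxcr6, 23.0 at Ccr1 and 23.6 at Ccr2. They held 7.65 FPM at Ccr3, 72.8 at Xcr1 and 30.6 at Ccrl2. In none of the members did this label exceed the leading type of the tumor.

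Over the tiles of both regions, 107 of 1092 were open, meaning at least 2 FPM over all labelled cells in both libraries, or at least 5 FPM from 20 or more fragments in the same type in both. The 6-gene region of 441.93 kb, taken from 50 kb before to 50 kb after the run, held 95 of them and the region of Ccrl2 12. They formed 52 separate runs, and 32 lay in a member's window. A leading type that was the same in both libraries was found in 31 of the 107, against 21.3% of open tiles genome-wide. IL10+ Treg cells led 8 of the 31, Th2, Cytotoxic gdT and Th17 cells 5 each, Rorgt gdT and PD1+ CD8 cells 3 each, and CD8aa and Mucosal Th1 cells 1 each. The Th2-led tiles rest on 2 to 16 fragments per library. The genome-wide shares of tiles that were open, and of open tiles led by each type, are not given here. These counts are therefore not read as traits of the regions.

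Many of the open tiles lay in the 100.1 kb between Xcr1 and Ccr1, mostly outside the windows of both. The most open of them, chr9:123924501-123925000, held 41.4 and 37.6 FPM over all cells, and IL10+ Treg cells there held 62.0 FPM in the cecum. In the tumor Rorgt gdT cells led the same tile with 51.3 FPM. The adjoining tile chr9:123925001-123925500 held 24.8 and 22.6 FPM over all cells, and chr9:123872001-123872500, 10.2 kb upstream of the Xcr1 start, 17.3 and 18.4 FPM. Closer to Ccr1, chr9:123932001-123932500 was led by IL10+ Treg cells in both libraries, with 27.7 and 26.8 FPM against 6.62 and 9.44 FPM in the median type. Just upstream of Xcr1, chr9:123869501-123870000 was led by Th2 cells with 28.1 and 27.3 FPM, followed by Th17 cells with 26.4 and 19.7 FPM. The tile chr9:123717501-123718000, which holds the start of Lztfl1, was open in every type, at 43.7 and 42.3 FPM.

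**Figure D3:**
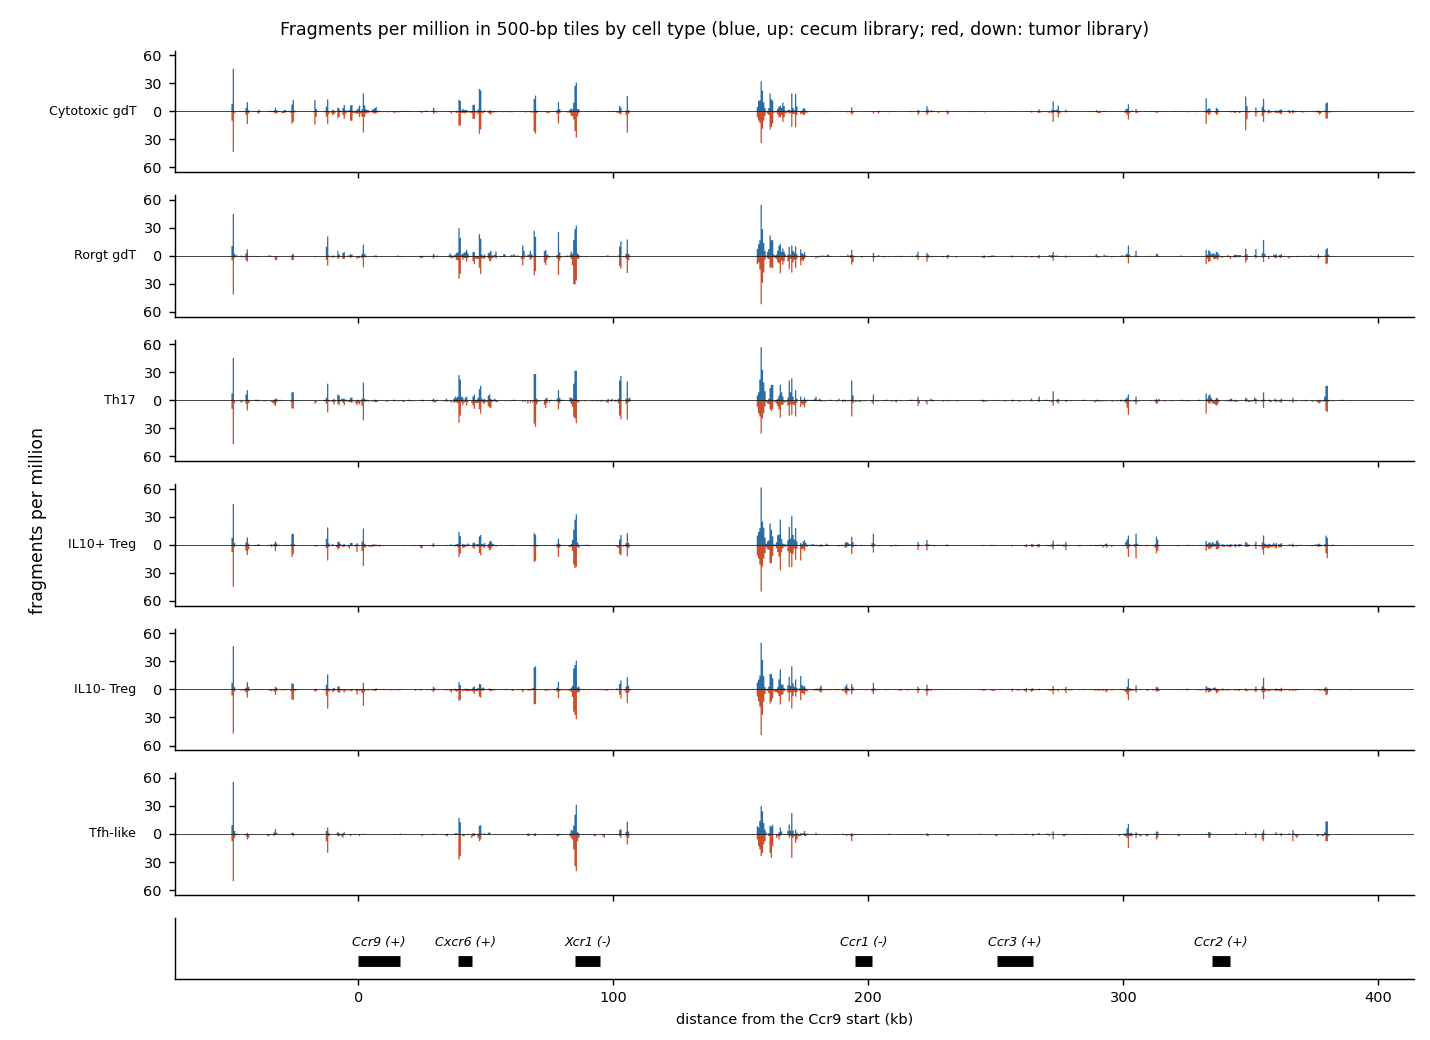
FPM in 500-bp tiles (y axis; cecum library upward in blue, tumor library downward in red) against the distance from the Ccr9 start in kb (x axis) for 6 cell types, with the spans of 6 receptor genes and their strands below. The tallest tiles lie at the start of Lztfl1 to the left and in the stretch between Xcr1 and Ccr1.

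Treg cells are FOXP3-expressing T cells that restrain immune responses, and IL-10 is a cytokine some of them use. The study contrasts IL10+ and IL10- Treg cells, and the ratio between them was therefore taken for each member in each library. Ccr2 and Ccr9 were higher in IL10+ Treg cells in both libraries, with intervals above 0. At Ccr2, IL10+ Treg cells held 34.0 FPM and IL10- Treg cells 20.99 FPM in the cecum, with 38.9 and 19.8 in the tumor library. Their log2 ratios stood at 0.69 (0.28 to 1.13) and 0.97 (0.58 to 1.37). At Ccr9 the levels were 34.0 and 15.996 FPM in the cecum library, against 49.5 and 33.4 in the tumor library, with log2 ratios of 1.09 (0.62 to 1.57) and 0.57 (0.24 to 0.89).

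Cxcr6 was higher in IL10+ Treg cells in the cecum only by its interval, at log2 0.49 (0.18 to 0.82), with 0.07 (-0.24 to 0.37) in the tumor. The difference between those ratios was not tested. Ccr1 had log2 ratios of 0.33 (-0.05 to 0.72) and 0.38 (-0.07 to 0.82), with intervals that included 0 in both libraries. For Ccr3, Xcr1 and Ccrl2 the intervals likewise included 0 in both libraries, with the widest, that of Ccr3, reaching from -0.72 to 0.60 in the cecum.

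By the 1.5-fold rule on the FPM + 1 scale, 1 of 7 members, Ccr2, was higher in IL10+ Treg cells in both libraries, against 0.861% of all genes. None of the 7 was lower, against 4.36%. Ccr9 missed the rule in the tumor, at log2 0.55, and passed it in both libraries when each cell counted equally or cells of high count were left out. Ccr2 did not pass it within 1 kb of the gene start, where the log2 ratio was 0.23 in the cecum, nor with a pseudocount of 5 FPM.

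**Figure D4:**
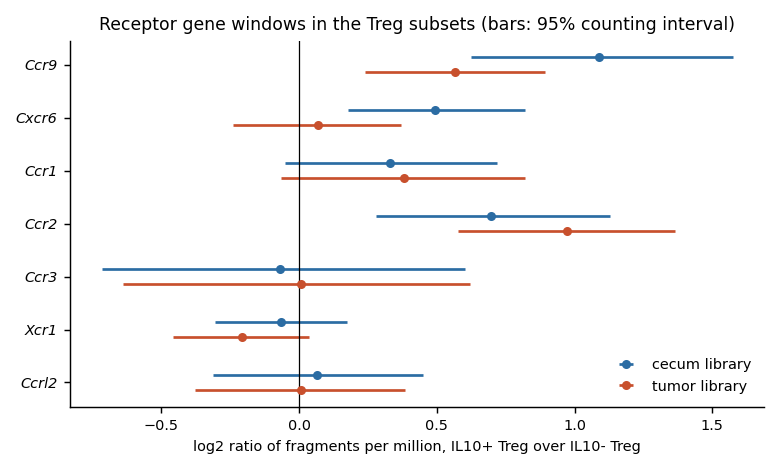
Log2 ratio of FPM in IL10+ over IL10- Treg cells (x axis) for the 7 gene windows (y axis) in the cecum (blue) and tumor (red) libraries, with exact 95% counting intervals. The intervals of Ccr9 and Ccr2 lie above 0 in both libraries, and those of Ccr1, Ccr3, Xcr1 and Ccrl2 include 0 in both.

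The Treg subsets were also compared by tile. Of 87 open tiles tested over both regions, 11, of which 2 lay around Ccrl2, were 1.5-fold higher in IL10+ Treg cells in both libraries, against 3.97% genome-wide, and 0 were lower, against 4.94%. A pair of these tiles between Ccr3 and Ccr2 is given as an example, chosen after the values were seen. At chr9:124071501-124072000, 30.4 kb upstream of Ccr2, IL10+ Treg cells held 12.6 FPM and IL10- Treg cells 4.999 FPM in the cecum library, against 13.9 and 2.76 in the tumor library. The log2 ratios there were 1.33 (0.52 to 2.24) and 2.34 (1.46 to 3.28). At chr9:124079501-124080000, 22.4 kb upstream, they were 1.505 (0.52 to 2.64) and 2.44 (1.28 to 3.74).

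Other tiles of the 11 lay across the run and beside Ccrl2. The tile upstream of Ccrl2 at chr9:111086001-111086500 had log2 ratios of 1.91 (1.03 to 2.92) and 0.98 (0.40 to 1.56). Between Xcr1 and Ccr1 lay 4, such as chr9:123931001-123931500 at 1.86 and 1.09, and the tile at the Ccr1 start had ratios of 0.72 and 0.78. In contrast, chr9:123940001-123940500 held 2.63 FPM in IL10+ and 14.996 FPM in IL10- Treg cells of the cecum, a log2 ratio of -2.51 (-3.46 to -1.64), and 16.1 and 11.02 FPM in the tumor, a log2 ratio of 0.55 (-0.04 to 1.12). These tiles share cells and neighbouring sequence and are not independent of one another.

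For the comparison of the tissues, each member was set against itself in the same cell type, and 101 of 112 pairs held at least 20 fragments over both libraries. Tumor was 1.5-fold higher in 7 pairs, against 4.75% of the pairs of all genes, and 1.5-fold lower in 8, against 3.3%. The interval of the ratio lay apart from 0 in 12 pairs, 3 of them at Ccr9. Over all genes the interval lay apart from 0 in 11.2% of pairs, so the members' count was near the background.

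Ccr9 in IL10- Treg cells held 15.996 FPM (11.8 to 21.2) from 48 fragments in the cecum and 33.4 FPM (28.9 to 38.5) from 194 in the tumor, a log2 ratio of 1.06 (0.60 to 1.55). Over 8 alternative settings the ratio ran from 0.32 with 50 kb flanks to 2.22 with 1 kb around the start. IL10+ Treg cells went the same way, from 34.0 to 49.5 FPM, at log2 0.54 (0.21 to 0.87). In newly activated CD4 cells Ccr9 held 30.5 FPM from 13 fragments in the cecum and 10.0 FPM from 30 in the tumor, a log2 ratio of -1.61 (-2.59 to -0.54). In IL10- Treg cells the tile chr9:123768501-123769000 held 7.66 FPM in the cecum library and 17.1 in the tumor library, and chr9:123766001-123766500, about 1 kb upstream of the start, 0.9997 and 4.995 FPM. The Cytotoxic gdT level of Ccr9, by comparison, was 65.5 and 64.2 FPM in the tissues.

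Ccr1 had a tumor over cecum ratio of log2 -0.40 (-0.81 to -0.00066) in IL10+ Treg cells and of log2 -0.45 (-0.87 to -0.03) in IL10- Treg cells, intervals that end close to 0. Without cells above 3 times the median count the ratios were -0.28 and -0.21, and over 8 alternative settings those nearest to 0 were -0.07 and -0.17, with 50 kb flanks. Cxcr6 was higher in the tumor in IL10- Treg cells, at log2 0.34 (0.02 to 0.67), and in CCR7+ CD4 cells, at 0.90 (0.21 to 1.58) with 30.2 and 56.2 FPM. Ccr2 held 20.99 and 19.8 FPM in IL10- Treg cells.

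Ccrl2 was higher in the tumor in Cytotoxic CD8 cells, at log2 0.64 (0.11 to 1.19), and in Innate-like T#1, at 0.34 (0.10 to 0.59). Ccr2 was lower in Th2 cells, at log2 -1.71 (-3.74 to -0.10) from 17 and 4 fragments, and Ccr3 in Cytotoxic CD8 cells, at log2 -1.05 (-2.06 to -0.09). The Xcr1 window was lower in Innate-like T#1 by log2 -0.18 (-0.33 to -0.02). Most fragments of that window in this label had an end in the part from inside Fyco1 to 1 kb upstream of its start. They numbered 558 in the cecum and 770 in the tumor, against 30 and 31 beyond that point. Without cells above 3 times the median count, the Ccr3 ratio was log2 -0.09. The Ccr3 ratio and that of Ccr9 in newly activated CD4 cells turned sign when the window was widened to 50 kb on each side.

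**Figure D5:**
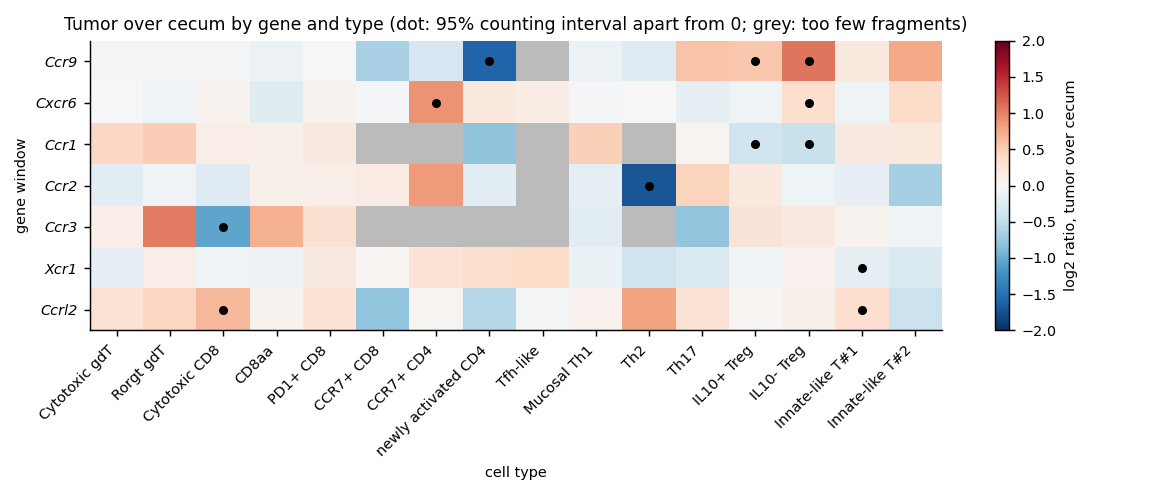
Log2 ratio of FPM in tumor over cecum (colour, red for higher in the tumor) for 7 gene windows (y axis) in 16 cell types (x axis). Dots mark the 12 pairs whose exact 95% counting interval lies apart from 0, and grey marks the 11 pairs with fewer than 20 fragments, which were not compared.

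Of 16 other chemokine receptor genes, set beside the members, 9 had the same leading type in both libraries, against 26% of all genes tested. Of the 16, 6 were led 2-fold over the median type, against 6.62%. Those with the same leading type include Ccr7 in CCR7+ CD4 cells (223 and 211 FPM). They also include Cxcr5 in Tfh-like cells (158 and 171 FPM) and Ccr6 in Th17 cells (90.7 and 97.9 FPM). The labels derive from RNA of the same nuclei, CCR7+ CD4 cells are named for Ccr7, and the paper describes Tfh cells by Cxcr5. The leads of Ccr7 and Cxcr5 are therefore not independent of the labelling. Of 11 with enough fragments in Treg cells, Ccr4 was 1.5-fold higher and Ccr8 1.5-fold lower in IL10+ Treg cells in both libraries. Over all genes tested 0.861% were higher and 4.36% lower by that rule. Ccr8 had log2 ratios of -1.55 (-1.85 to -1.25) and -0.83 (-1.16 to -0.52), opposite to Ccr2. The paper describes high CCR8 on the IL-10- subset, so this ratio is likewise not independent of the labelling. The median log2 ratio of the 11 on the FPM + 1 scale was 0.19 (cecum) and 0.14 (tumor), beside 0.32 and 0.07 for the 7 members and 0.01 and 0.01 for all genes.

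Of 15 ligand genes of the members, 10 held enough fragments, and 2 of these had the same leading type in both libraries and were led 2-fold. Over all genes tested 26% had the same leading type and 6.62% were also led 2-fold. Ccl4, an inflammatory CC chemokine, was highest in CD8aa cells with 78.9 and 89.3 FPM. Ccl5, which binds CCR1 and CCR3, held 65.6 and 78.2 FPM over all cells and was lower in IL10+ than IL10- Treg cells, at log2 -1.59 (-2.18 to -1.02) and -1.20 (-1.68 to -0.75). The monocyte attractant Ccl2, the CCR2 ligand, held 0.341 and 0.306 FPM, and the CCR3 ligand Ccl11 0.409 and 0.563 FPM. The windows of Ccl25 and Cxcl16 held between 73.0 and 77.5 FPM in both libraries.

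The genes most like each member in their log2 levels over 16 types, by the smaller Pearson r of the libraries among 15155 genes, were as follows. For Ccr1 they were Eif3h (r of 0.90 and 0.94), Adamts16 and Lamc1, and for Ccr2 Crispld2 (0.79 and 0.83), Aopep and Gna15. For Ccr9 they were Plac1 (0.71 and 0.71), Grap2 and Tbcd, and for Cxcr6 P2rx7 (0.76 and 0.78), Gk and Rap1gap2. Ccr3 was most like Unc5b (0.77 and 0.72), Rexo5 and Wdr95, Xcr1 most like Amz2 (0.68 and 0.67), Fkbp3 and Ap1s2, and Ccrl2 most like Gm44504 (0.70 and 0.73), Slc10a3 and Lgmn. Among the members themselves, Ccr9 and Ccr2 had an r of 0.59 and 0.70, and Ccr1 and Ccr2 of 0.64 and 0.55. The other pairs of members had lower values, down to -0.40 in the cecum (Ccrl2 and Cxcr6) and -0.46 in the tumor (Xcr1 and Ccr9). These are descriptions over types of 1 library, which share depth and cell numbers.

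Barcodes outside the labelled cells were also counted, 1592 in the cecum library and 2044 in the tumor library, each holding at least 1000 fragments. They held 56.5 FPM at Cxcr6 in the cecum, below the 70.1 FPM of labelled cells, and 25.3 FPM at Ccr9, near the 26.2 FPM of labelled cells. No member was higher there than in its highest labelled type. Of 6 macrophage and monocyte markers, Csf1r (12.7 FPM against 3.62 in labelled cells) and Adgre1 (10.7 against 2.93) stood above their highest labelled type in the cecum. In the tumor library Csf1r held 8.34 against 4.56 FPM and Adgre1 7.63 against 4.36, and no marker of that list stood above its highest type beyond the counting interval. Cadm1, of the dendritic cell list, did so in the tumor with 26.6 FPM against 12.8 in labelled cells, and held 32.0 against 11.7 FPM in the cecum. Others of that list did not follow it. Zbtb46 (200 against 211 FPM in the cecum, 246 against 252 in the tumor) and Xcr1 (62.8 against 69.8, 63.0 against 68.9) were lower than in labelled cells. Batf3 (29.6 against 37.6, 48.2 against 46.8) and Clec9a (8.57 against 6.43, 8.89 against 9.43) differed in direction between the libraries. Cd68, of the macrophage and monocyte list, was lower, with 101 against 114 FPM in the cecum and 86.2 against 103 in the tumor.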

How the data were processed

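Mouse T cells from 1 tumor and 1 cecum sample were measured with a 10x multiome assay. Fragment files were produced by the authors, according to the headers, in Cell Ranger ARC 2.0.0 with mm10. Each deposited line is 1 fragment with its barcode and read-pair count, a raw count without normalization. The authors filtered nuclei on RNA and ATAC quality and labelled them from RNA clusters. Those labels were used as deposited. The RNA samples were not analysed here, and doublets were not called.

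A fragment of chromosomes 1 to 19, X or Y entered a window's count once if either end fell in it. Counts were added over each label's cells and divided by the label's total, times 1000000 (FPM). Gene spans, starts and promoters came from RefSeq for GRCm38.p6, which mm10 equals, covering 21887 genes. No genome sequence was used, so exons and tile sequences are not stated. One gene of the region is not reported here. Log2 ratios of single windows came from counts with exact conditional intervals. Calls across genes used a pseudocount of 1 FPM, which understates changes of low genes, at least 50 fragments per library for a gene and 20 over both libraries for a pair. Ratios against 0 counts use a floor of 3 counts.

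The members were chosen by name and position, and they and the lists were set with earlier results of these data known. Text names all members, 3 most alike genes each, 2 most open tiles per window, 5 outside the windows and 5 with the largest leading over median type. Other tiles, given as Treg examples, for a repeated leader or for the tissue difference, were chosen after their values were seen, as were the receptors and ligands named from the lists. Software was scipy 1.17.1, numpy 2.4.6, numba 0.67.0, matplotlib 3.10.9 and pandas 2.3.3 under Python 3.11.15. The counter and intervals were tested on simulated data.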

Additional observations from a re-analysis of the deposited data

Results flagged for a closer look

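The tumor over cecum ratio of Ccr9 had opposite signs in cell types whose counting intervals lay apart from 0. It was log2 0.54 in IL10+ Treg cells and 1.06 in IL10- Treg cells, and -1.61 in newly activated CD4 cells. The difference between the types was not tested, and newly activated CD4 cells were 77 in the cecum and 523 in the tumor.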

How the results depend on the processing

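The leading type of Ccr9 was Cytotoxic gdT in both libraries under 10 of 11 alternatives. The exception was 1 kb either side of the gene start, where Th17 cells led in the tumor. However, the settings with a pseudocount of 5 FPM, no gene minimum or a gene minimum of 200 fragments left the levels as they were. These settings could not move the leading type of any member and are no check on it. Members with the same leader in both libraries numbered 1 with 1 kb around the start, Ccr1, where Xcr1 and Ccr3 fell under the fragment minimum, and 5 with 50 kb flanks, which take in neighbouring genes, against 2. Members led 2-fold numbered 2 both without cells above 3 times the median count and as a mean over cells, where Ccr1 joined Ccr9, and 0 with 50 kb flanks. Members past 1.5-fold between Treg subsets numbered 2 without cells of high count and as a mean over cells, where Ccr9 joined Ccr2, and 0 with a pseudocount of 5 FPM and with 1 kb around the start, where Ccr9 passed the fold but it, Ccr2, Ccr3 and Xcr1 held too few fragments to count. Tumor and cecum pairs past 1.5-fold, 15 in the report, numbered 24 as a mean over cells, 2 with 50 kb flanks and 8 with a pseudocount of 5 FPM. Open tiles with the same leader numbered 20 without cells of high count. With an open threshold of 4 FPM, or 10 FPM in a type, 60 tiles were open and 18 had the same leader. Cxcr6 lost its shared leader in 5 of the 11, which include the settings that could not move a leader. Th2 cells led it in the cecum without cells of high count, Th17 cells in the cecum with scaling by fragments near gene ends and with 1 kb around the start, and in the tumor CCR7+ CD8 cells as a mean over cells and Th17 cells without flanks. Under some of these Ccr1, Ccr2 or Ccr3 gained a shared leader, so a like count did not mean the same members. The Ccr3 ratio in Cytotoxic CD8 cells was log2 -0.09 without cells of high count and -2.07 without flanks. With 50 kb flanks the tumor over cecum ratio turned to log2 0.11 for Ccr3 in Cytotoxic CD8 cells and to 0.14 for Ccr9 in newly activated CD4 cells. The cause of these changes was not tested. The other 45 counts stayed within 1.5 times, some of them counts of leaders under settings that could not move a leader. Of the single ratios and levels 242 moved within their counting interval and 33 beyond it. The Xcr1 level without the part of the window from inside Fyco1 to 1 kb upstream of its start, 4.41 and 5.52 FPM, was chosen after seeing the data. No paired analysis was possible because each tissue had 1 library. Low fragment numbers limit the small types, such as Th2 and Tfh-like cells.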
